A study of Mus musculus with 11 samples.

Results

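The expression of 10 genes of melanocytes and pigment synthesis was examined in 2 tissues, skin and small intestine, after topical imiquimod (IMQ) or vehicle. *Tyr*, *Tyrp1*, *Dct*, *Pmel*, *Mlana*, *Oca2*, *Slc45a2*, *Slc24a5*, *Mitf* and *Kit* were taken by their symbols from a table of 45777 genes, and all 10 were found. These genes were chosen because their levels in an earlier look at the same skin libraries differed between most vehicle libraries and the IMQ libraries, with 1 vehicle library near the IMQ level. The skin values of IMQ against vehicle are therefore given as a description, with counts of calls only beside the share of all genes called. The small intestine values played no part in the choice. The comparison between tissues uses the same vehicle skin values again and is a description too.

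All mice were BALB/c, of either sex and aged 8 to 10 weeks, and no transgene or deletion is stated for any group. The back was shaved, and 62.5 mg of cream was applied each day for 5 to 8 days on the back and the right ear. Treated mice received Aldara cream with 5% IMQ, which activates TLR7 and provokes psoriasis-like dermatitis, and control mice received Vaseline, so IMQ and the base of its cream cannot be told apart. RNA sequencing was available for skin of vehicle libraries 1 to 3 and IMQ libraries 4 to 6, and for small intestine of vehicle libraries 7 to 9 and IMQ libraries 10 and 11. The labels do not say which tissues came from the same mouse, how many days each mouse was treated or how the skin was dissected, so the p-values below measure the spread between these samples.

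Melanocytes arise from the neural crest and make melanin in melanosomes, which are lysosome-related organelles. In the back skin of mice they reside chiefly in hair follicles, where pigment is made while the hair grows. BALB/c is an albino strain that carries an inactive *Tyr* allele and the brown allele of *Tyrp1*, so its melanocytes transcribe pigment genes without making melanin. The transcription factor MITF activates many genes of melanin synthesis through an element named the M-box, and the receptor tyrosine kinase KIT is needed for the survival and migration of melanocyte precursors.

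The promoters of the tyrosinase family are shown first because each carries the core of the M-box. RefSeq promoter sequences of the GRCm38.p6 build, covering 250 bases before to 50 bases after the annotated start, were matched for 7 of the 10 members, and *Pmel*, *Mlana* and *Slc45a2* were not among them. The stretches below lie upstream of the start, are written 5′ to 3′ along the strand of the gene, and have the M-box core TCATGTG in capitals. They come from the reference genome and not from BALB/c DNA.
Tyr, chr7:87493513-87493564, minus strand: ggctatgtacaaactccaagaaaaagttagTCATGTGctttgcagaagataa
Tyrp1, chr4:80834136-80834202, plus strand: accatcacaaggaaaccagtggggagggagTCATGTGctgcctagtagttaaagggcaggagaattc
Dct, chr14:118052361-118052427, minus strand: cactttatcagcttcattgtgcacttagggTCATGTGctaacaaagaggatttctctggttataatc

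The capitals begin 22 bases before the start in *Tyr*, 47 in *Tyrp1* and 151 in *Dct*. The longest run shared by *Tyr* and *Tyrp1* around the core, AGTCATGTGCT, is the full M-box, and searched on both strands it was present in 7 of all 32851 promoters (0.0213%). As this run was taken from the promoters of *Tyr* and *Tyrp1*, its presence in both was fixed in advance, and nothing is read from its share. The windows of *Dct*, *Slc24a5*, *Oca2*, *Kit* and *Mitf* did not hold it. The core was found in *Tyr*, *Tyrp1*, *Dct* and *Slc24a5* and in 3.77% of all promoters. An additional match in *Dct* and the only match of *Slc24a5* were on the opposite strand. The shorter E-box CATGTG, which lies within the core, was also found in *Oca2* and in 14.2% of all promoters, and neither *Kit* nor any of the 3 annotated starts of *Mitf* held it. These matches describe letters in the windows and are neither binding sites nor causes.

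*Mitf* itself has several promoters, of which the most downstream drives the melanocyte isoform and carries a cyclic AMP response element. That promoter is shown because the read counts were summed over the whole gene and cannot separate its transcripts from those of the other starts. The element TGACGTCA, in capitals, was found in this start of *Mitf* only, among the members with a promoter sequence, and in 1.79% of all promoters.
Mitf, most downstream start, chr6:97991600-97991667, plus strand: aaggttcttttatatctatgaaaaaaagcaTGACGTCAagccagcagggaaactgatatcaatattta

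The libraries had 44995414 to 58526384 counts each, and the mitochondrial share of the counts was 3.97% to 5.85% in skin. Vehicle library 2 of the skin stood apart in its content of intestinal transcripts. The summed FPKM, which scales fragments to transcript length and library size, of 9 genes of intestinal epithelium was 157 in it and 0.344 to 4.04 in the others, against 7156 to 15253 in small intestine. Markers of the epidermis were at 5319 to 13706 summed FPKM in skin and at 0.676 to 1.59 in small intestine. The 8 pigment genes other than *Mitf* and *Kit* had a summed FPKM of only 0.416 to 0.814 in small intestine. Vehicle library 2 was also the vehicle library near the IMQ level in the earlier look at these data. Leaving it out is therefore not independent of the values of the members. The members are given for each skin library, and summaries are given with and without vehicle library 2. In bulk tissue, fewer cells of a type and less RNA per cell cannot be told apart.

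Across the skin libraries, the 8 pigment genes followed 1 order with few exceptions. Vehicle library 3 was the highest and vehicle library 1 the second for 8 of 8 genes, and IMQ library 4 was the highest of the IMQ libraries for 8 of 8. The lowest of the 6 skin libraries was IMQ library 6 for 5 genes and IMQ library 5 for 3 genes. Relative to the median of the IMQ libraries, the normalized count was 12.0 to 52.7 times as high in vehicle library 3 and 4.68 to 20.5 times as high in vehicle library 1, but only 1.16 to 4.05 times as high in vehicle library 2. Vehicle library 2 lay below both other vehicle libraries for 8 of 8 pigment genes, which was also true of 37.6% of all 20512 genes tested in skin. It lay inside the range of the IMQ libraries for 4 of the 8, *Tyr*, *Tyrp1*, *Mlana* and *Oca2*, and for 32.4% of all genes.

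**Figure D1:**
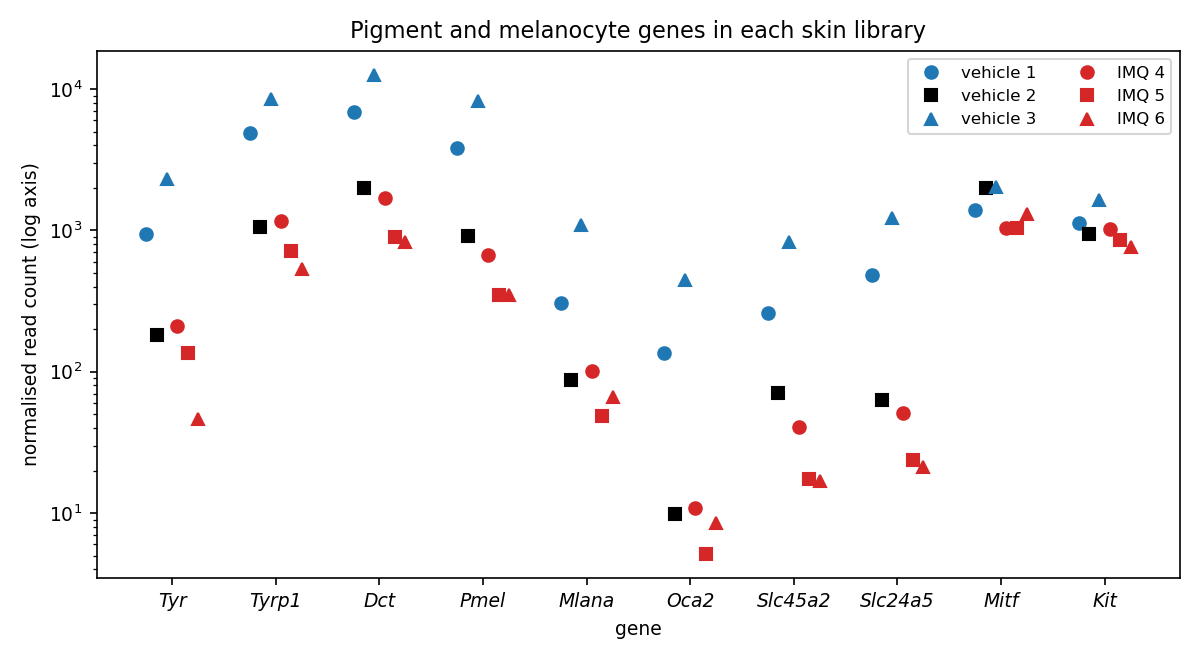
Normalized read count on a log axis of each of the 10 genes in the 3 vehicle libraries (blue, with vehicle library 2 in black) and the 3 IMQ libraries (red) of the skin, with 1 point per library. Vehicle libraries 1 and 3 lie above all IMQ libraries for every gene shown, whereas the black squares lie inside the range of the red points for *Tyr*, *Tyrp1*, *Mlana*, *Oca2* and *Kit* and above it for the other genes.

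The enzymes of melanin synthesis were at their highest in vehicle library 3 and at their lowest in IMQ library 6. Tyrosinase, encoded by *Tyr* (chr7:87424771-87493512), catalyzes the first and rate-limiting steps. Its normalized count was 949, 182 and 2292 in vehicle libraries 1, 2 and 3 and 210, 136 and 46.7 in IMQ libraries 4, 5 and 6. The groups overlapped because vehicle library 2 was below IMQ library 4, and the highest library had 49.1 times the lowest.

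*Tyrp1* (chr4:80834123-80851736) encodes a melanosomal protein that stabilizes tyrosinase and, in the mouse, acts as an oxidase of a melanin intermediate. It had normalized counts of 4877, 1062 and 8514 with vehicle and 1162, 711 and 531 with IMQ. Again vehicle library 2 was below IMQ library 4, so that the groups overlapped. *Dct* (chr14:118012790-118052246) encodes dopachrome tautomerase, which acts later in the same pathway and also marks melanoblasts. Its normalized counts were 6934, 1987 and 12634 with vehicle and 1687, 905 and 833 with IMQ. The groups did not overlap, although vehicle library 2 exceeded IMQ library 4 by less than any pair of vehicle libraries differed.

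The melanosome matrix genes moved over a similar range. *Pmel* (chr10:128695888-128720238) encodes the protein of the fibrils on which melanin is laid down, and had normalized counts of 3816, 909 and 8223 with vehicle and 673, 347 and 351 with IMQ. Vehicle library 2 was the lowest vehicle library and still above every IMQ library. *Mlana* (chr19:29697541-29708447), whose product MART-1 is involved in the maturation of PMEL, had 308, 87.2 and 1089 with vehicle and 102, 48.3 and 65.7 with IMQ. Here vehicle library 2 fell between IMQ libraries 4 and 6.

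The melanosomal transporters had few reads in the IMQ libraries, and their highest library had 49.0 to 87.0 times the normalized count of the lowest. *Oca2* (chr7:56239593-56536518), which encodes the melanosomal P protein, had normalized counts of 136, 9.81 and 447 with vehicle and 10.9, 5.14 and 8.48 with IMQ, and vehicle library 2 lay among the IMQ libraries. In vehicle library 2 the 9 reads of *Oca2* have an exact 95% Poisson interval of 4.12 to 17.1, and the 5 to 10 reads of the IMQ libraries have intervals from 1.62 to 18.4, so these 4 libraries could not be ordered at this depth. Such intervals cover counting error only.

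*Slc45a2* (chr15:11000721-11029233), a transporter that controls melanosome pH, had normalized counts of 261, 70.9 and 831 with vehicle and 40.4, 17.5 and 17.0 with IMQ. The groups did not overlap, and vehicle library 2 with 65 reads (50.2 to 82.8) was close to IMQ library 4 with 37 reads (26.1 to 51.0). *Slc24a5* (chr2:125068127-125088677), a cation exchanger of intracellular organelles, had 485, 63.2 and 1223 with vehicle and 51.4, 23.7 and 21.2 with IMQ. Without overlap between the groups, the intervals of vehicle library 2 (58 reads, 44.0 to 75.0) and IMQ library 4 (47 reads, 34.5 to 62.5) nevertheless included common values.

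The regulators *Mitf* and *Kit* varied far less than the pigment genes. *Mitf* (chr6:97807002-98021360) had normalized counts of 1392, 2002 and 2035 with vehicle and 1036, 1032 and 1301 with IMQ. All IMQ libraries were below all vehicle libraries, and vehicle library 2 was here close to vehicle library 3. *Kit* (chr5:75574987-75656722) had 1122, 940 and 1639 with vehicle and 1020, 857 and 767 with IMQ. Its groups overlapped, and the highest library had 2.14 times the lowest.

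The log2 fold changes estimated by edgeR for IMQ against vehicle were -2.59 to -4.58 for the 8 pigment genes. The smallest difference was that of *Tyrp1* at -2.59 (SE 0.71) and the largest that of *Oca2* at -4.58 (SE 1.25). For *Mitf* the estimate was -0.69 (SE 0.18) and for *Kit* -0.49 (SE 0.23). The median over the 10 members was -2.96, compared with -0.01 over all genes tested. Without vehicle library 2 the median of the members was -3.45 and the standard errors of the 8 pigment genes were 0.39 to 0.64, against 0.65 to 1.25 with all 6 libraries.

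By edgeR's quasi-likelihood test at an adjusted p below 0.05, 0 of the 10 members were called with all 6 skin libraries, while 6.74% of all genes were called and 2.69% were called lower with IMQ. At an unadjusted p below 0.05, 9 of the 10 members and 4753 of all genes passed. DESeq2 called 9 members, against 7.85% of genes called lower, and edgeR without vehicle library 2 called 8, against 6.66%. Groups without overlap and lower with IMQ were seen for 5 members and 13.3% of genes, and without vehicle library 2 for 10 members and 24.2% of genes. The members were chosen on this contrast, so nothing is read from these counts.

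**Figure D2:**
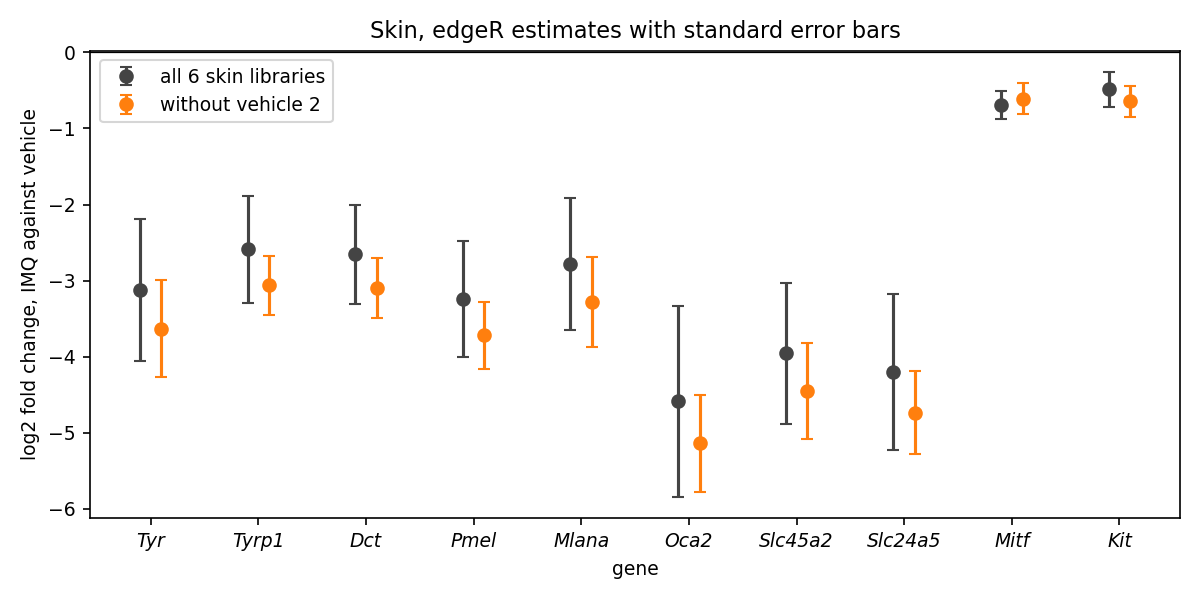
Log2 fold change of IMQ against vehicle in skin for each gene as estimated by edgeR, with standard error bars, from all 6 skin libraries (grey) and without vehicle library 2 (orange). The pigment genes lie between -2.59 and -4.58 with all libraries and lower without vehicle library 2, and *Mitf* and *Kit* lie at -0.69 and -0.49 with all libraries.

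To compare levels between genes, the deposited FPKM were used, since they take transcript length into account. *Dct* had the highest FPKM of the 10 genes in all 6 skin libraries, with 58.8, 15.6 and 108 with vehicle and 13.1, 7.27 and 6.87 with IMQ. *Oca2* had the lowest in all 6, with 0.824, 0.0526 and 2.76 with vehicle and 0.0577, 0.0282 and 0.0478 with IMQ. In vehicle skin, the ranges of neighbors in the order of mean FPKM overlapped. Within each vehicle library, however, *Dct* was above *Pmel*, *Tyrp1* above *Mlana*, *Tyr* above *Slc45a2*, and *Slc45a2* above *Oca2*. The other neighbors changed order between the vehicle libraries. In IMQ skin, 3 pairs of neighbors did not overlap, with *Kit* at 2.76 to 3.45 above *Mlana* at 1.37 to 2.72, *Mlana* above *Tyr* at 0.140 to 0.633, and *Slc45a2*, at 0.103 in IMQ library 5, above *Oca2*, at 0.0577 or less.

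In vehicle skin the mean FPKM was 60.9 ± 46.3 for *Dct*, 38.6 ± 33.8 for *Pmel* and 33.9 ± 26.8 for *Tyrp1* (SD, n = 3). It was 15.3 ± 16.2 for *Mlana* and 3.64 ± 3.47 for *Tyr*. For each of them vehicle library 3 was the highest and vehicle library 2 the lowest of the group. The FPKM of *Tyr* was thus more than 10-fold below that of *Dct* in each vehicle library, although both enzymes act in 1 pathway.

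In vehicle library 3, the FPKM of *Pmel* was 74.7, that of *Tyrp1* 60.6 and that of *Mlana* 33.6, all above the 8.37 of *Mitf* and the 6.11 of *Kit*. In IMQ libraries 4, 5 and 6, the FPKM of *Mitf* was 3.70, 3.87 and 4.94 and that of *Kit* 3.45, 3.01 and 2.76, against 5.34, 2.95 and 3.07 for *Pmel*. *Mitf* was thus above *Pmel* in IMQ libraries 5 and 6 and *Kit* in IMQ library 5 alone, and both were above *Mlana* in all IMQ libraries. The FPKM of *Slc24a5* went from 12.1 FPKM in vehicle library 3 to 0.220 in IMQ library 5.

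Genes with a profile like that of the pigment genes were sought among 15757 genes tested in skin whose normalized counts averaged 50 or more. Likeness was measured by Pearson's r over the 6 skin libraries with the mean log2 normalized count of the 8 pigment genes, each centered on its own mean. The 10 genes with the highest r were *Gli3*, *Ephb3*, *Ercc6l2*, *Mlph*, *Tbx1*, *Brd3*, *Pias2*, *Wnt5a*, *Gpr63* and *Dnah1*, all with r of at least 0.99. This r follows the shape of a profile and not the size of its changes. By edgeR, the log2 fold changes of these 10 genes for IMQ against vehicle ranged from -0.15 for *Pias2* to -2.24 for *Tbx1*. *Pias2* was thus nearly level, with normalized counts of 2517, 2263 and 2628 with vehicle and 2271, 2199 and 2216 with IMQ. Because 2 libraries are far above the other 4, many genes reach a high r, and 841 of the candidates were above 0.9.

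*Tbx1*, a T-box transcription factor, had normalized counts of 2467, 769 and 3839 with vehicle and 627, 430 and 441 with IMQ. *Mlph*, whose product melanophilin links melanosomes to myosin Va, had 464, 242 and 685 with vehicle and 226, 154 and 144 with IMQ. Both genes were highest in vehicle libraries 3 and 1, as the pigment genes were, but over a narrower range. Of the members kept out of the mean, *Kit* had an r of 0.947 and *Mitf* an r of 0.600.

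Other genes of melanocytes were read from lists of genes that were not members. Of 10 further melanocyte genes, 9 were tested in skin, and 1 was called by edgeR, lower with IMQ, at a background of 2.69% lower and 4.05% higher over all genes, with a median log2 fold change of -1.13. The gene called was *Mc1r*, the receptor for melanocyte-stimulating hormone, with normalized counts of 260, 34.9 and 990 with vehicle and 14.2, 7.20 and 8.48 with IMQ. All IMQ libraries were below vehicle library 2, which was again far below the other vehicle libraries. The log2 fold change of *Mc1r* was -5.42 (SE 1.23, adjusted p = 0.0487 by edgeR). The call rests on the libraries used, because among the 6 fits without 1 library only that without vehicle library 2 gave it (adjusted p = 0.00803 by edgeR), and the adjusted p was 0.19 without IMQ library 5.

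The remaining melanocyte genes included transcription factors above *Mitf* and a channel. *Sox10*, which marks melanocytes and Schwann cells, had normalized counts of 527, 423 and 704 with vehicle and 375, 252 and 309 with IMQ. *Pax3*, a neural crest transcription factor, had 212, 101 and 239 with vehicle and 79.8, 40.1 and 46.7 with IMQ. Both were without overlap between the groups, at an adjusted p of 0.104 and 0.0593 by edgeR. *Trpm1*, a cation channel of melanocytes, had 1117, 117 and 3195 with vehicle and 109, 79.2 and 79.5 with IMQ (adjusted p = 0.0697 by edgeR). Without vehicle library 2, edgeR called 6 of the 9 genes lower, namely *Sox10*, *Pax3*, *Ednrb*, *Mc1r*, *Trpm1* and *Tspan10*. That fit called 6.66% of all genes lower.

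The list did not move as a whole. *Rab38*, a small GTPase of melanosome transport, had normalized counts of 1771, 2188 and 1501 with vehicle and 2588, 2609 and 2083 with IMQ, with overlapping groups and a log2 fold change of 0.42 (SE 0.17, adjusted p = 0.204 by edgeR). *Gpnmb*, a melanosomal glycoprotein also found in macrophages, had a log2 fold change of 0.29 (SE 0.19, adjusted p = 0.406 by edgeR). At an unadjusted p below 0.05 by edgeR, 5 of the 9 genes were lower and 1, *Rab38*, was higher. Of all 20512 genes, 4753 passed in either direction.

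Of 8 genes of signals that act on melanocytes, 6 were tested in skin, and by edgeR 1 was called higher and 1 lower with IMQ, where 4.05% of all genes were called higher and 2.69% lower. By the estimates alone, 4 of the 6 were below 0 and 2 above. *Edn3*, a ligand of the endothelin receptor B on melanoblasts, had normalized counts of 220, 145 and 630 with vehicle and 49.2, 36.0 and 40.3 with IMQ. The groups were well apart, also for vehicle library 2, and the log2 fold change was -2.99 (SE 0.58, adjusted p = 0.0327 by edgeR). *Hgf*, a growth factor for melanocytes and other cells, had 241, 185 and 188 with vehicle and 339, 544 and 453 with IMQ. Its log2 fold change was 1.12 (SE 0.24, adjusted p = 0.0396 by edgeR). The call of *Hgf* was lost in each of the 6 fits without 1 library, and that of *Edn3* remained in 2 of them, without vehicle library 2 and without vehicle library 3.

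*Kitl*, the ligand of KIT, had normalized counts of 2507, 2276 and 3004 with vehicle and 2245, 2152 and 2179 with IMQ, at an adjusted p of 0.309 by edgeR. *Asip*, whose product agouti antagonizes MC1R, had 30.8, 27.3 and 234 with vehicle and 25.1, 40.1 and 36.1 with IMQ. It was thus high in vehicle library 3 alone. *Corin*, a protease of the dermal papilla that acts on the agouti pathway, was not tested because 2 IMQ libraries had no read. It had 1098, 64 and 1331 reads with vehicle and 18, 0 and 0 with IMQ.

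The machinery that builds and moves melanosomes, which is shared with other lysosome-related organelles, did not follow the pigment genes as a group. All 24 genes on this list were tested in skin, and 1 was called by edgeR, higher with IMQ, with a median log2 fold change of 0.08. This is close to the 4.05% of all genes called higher. The gene called was *Slc7a11*, a cystine transporter that acts in pheomelanin synthesis and in antioxidant defense of many cells. Its normalized count was 97.7, 145 and 311 with vehicle and 7672, 4164 and 2244 with IMQ. All IMQ libraries were far above all vehicle libraries, with a log2 fold change of 4.66 (SE 0.62, adjusted p = 0.0107 by edgeR), and the call was kept in 6 of 6 fits without 1 library. Together these lists held 42 genes, of which 39 were tested and 4 were called by edgeR, against 6.74% of all genes in that fit. DESeq2 called 9, of which 2 were higher, against 7.85% of genes called lower. Without vehicle library 2, edgeR called 9, of which 1 was higher, against 6.66% called lower.

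Most markers of the hair matrix and inner root sheath moved with the pigment genes. The summed FPKM of 12 genes of the hair matrix and inner root sheath was 696, 11.6 and 1128 in vehicle libraries 1, 2 and 3 and 12.3, 10.4 and 9.51 in IMQ libraries 4, 5 and 6. Vehicle library 2 was thus at the level of the IMQ libraries for this list as well. Of 10 genes of the list that were tested, 4 were called lower with IMQ by edgeR, against 2.69% of all genes. Without vehicle library 2, 9 were called lower, against 6.66%. *Krt25*, a keratin of the inner root sheath, had 19233, 8 and 34381 reads with vehicle and 7, 7 and 0 with IMQ. *Hoxc13*, a transcription factor of hair differentiation, had normalized counts of 1269, 359 and 2277 with vehicle and 210, 153 and 152 with IMQ. *Foxn1* did not follow this pattern, with 966, 719 and 938 with vehicle and 1248, 911 and 813 with IMQ and overlapping groups. The part of hair follicle content in the levels of the pigment genes was not tested.

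**Figure D3:**
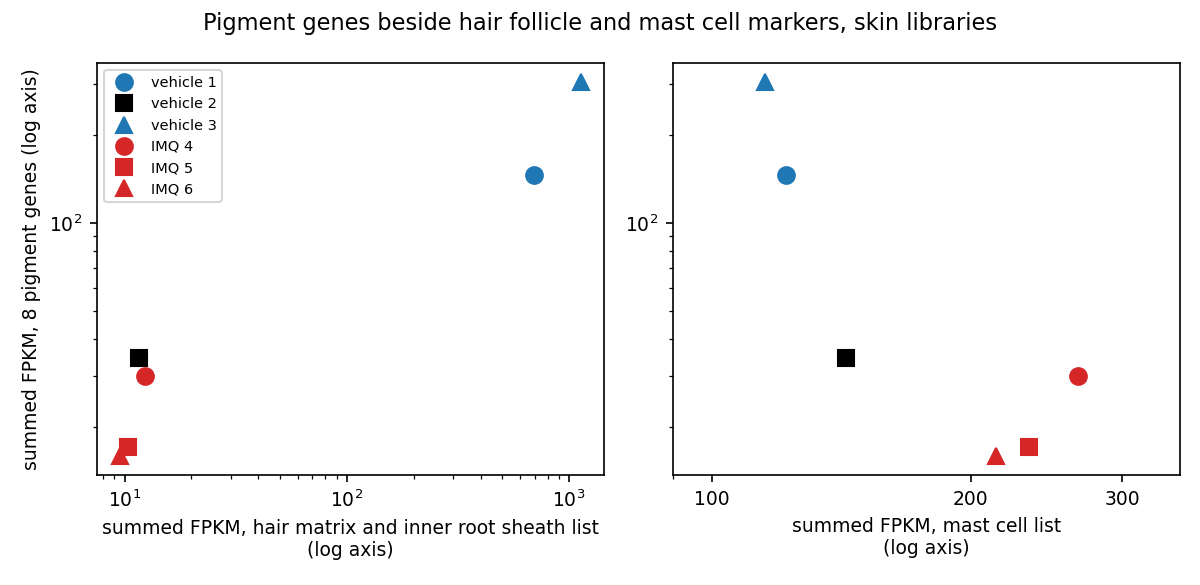
Summed FPKM of the 8 pigment genes against the summed FPKM of 12 hair matrix and inner root sheath genes (left) and of 10 mast cell genes (right) in each skin library, all axes on a log scale. Vehicle libraries 1 and 3 are high in pigment and hair genes, and vehicle library 2 (black) lies with the IMQ libraries on the left and with the vehicle libraries on the right.

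Mast cells also express *Kit* and *Mitf*, and their markers went the other way. The summed FPKM of 10 mast cell genes was 122, 143 and 115 with vehicle and 267, 234 and 214 with IMQ. By edgeR, 6 of the 8 genes tested were called higher with IMQ, against 4.05% of all genes. The list of Schwann cells, which like melanocytes arise from the neural crest, was at 39.7 to 72.3 summed FPKM with vehicle and 40.8 to 49.4 with IMQ. Of its 6 genes, edgeR called 0, against 6.74% of all genes. DESeq2 called 1, against 3030 of 19302 genes. At an unadjusted p below 0.05 by edgeR, 2 passed, against 4753 of 20512 genes. The summed FPKM of 7 genes of the epidermis was 5319 to 10227 with vehicle and 8193 to 13706 with IMQ. The part of these cell types in the levels of *Kit* and *Mitf* was not tested.

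In the small intestine the pigment genes were at or near 0, as the color plot of the members in all 11 libraries shows. No read of *Tyr*, *Tyrp1* or *Oca2* was counted in any of the 5 libraries, and a count of 0 allows up to 3 reads in each. *Slc45a2* had 2 reads in vehicle library 7 and 0 in the others, and *Mlana* had 4, 0 and 6 reads with vehicle and 0 and 0 with IMQ. Transcripts that define pigment cells were thus at or near the floor of detection in this tissue.

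*Pmel*, *Dct* and *Slc24a5* gave a few reads in the small intestine. *Pmel* had 70, 42 and 45 reads with vehicle and 68 and 39 with IMQ, *Dct* had 12, 9 and 4 with vehicle and 7 and 12 with IMQ, and *Slc24a5* had 5, 9 and 10 with vehicle and 5 and 9 with IMQ. In the annotation, *Pmel* overlaps *Cdk2* on the opposite strand by 837 bases and *Slc24a5* overlaps *Myef2* on the opposite strand by 4050 bases, and *Dct* and *Oca2* overlap antisense RNAs. As the handling of strand in the counts is not given in the sources used here, reads of such pairs cannot be told apart.

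*Mitf* and *Kit* were expressed in the small intestine, where *Kit* marks the interstitial cells of Cajal and mast cells. The normalized count of *Kit* was 1277, 1664 and 1219 with vehicle and 1272 and 986 with IMQ, with overlapping groups. That of *Mitf* was 98.7, 119 and 134 with vehicle and 193 and 140 with IMQ, with both IMQ libraries above all vehicle libraries, as were 15.1% of all 19965 genes tested in this tissue. Of the 10 members, 5 were tested, and 0 were called by edgeR, while 2.95% of all genes were called.

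By edgeR, the log2 fold change for IMQ against vehicle in small intestine was 0.51 for *Mitf* (SE 0.28, adjusted p = 0.557) and -0.30 for *Kit* (SE 0.19, adjusted p = 0.639). At an unadjusted p below 0.05, 0 of the 5 members and 2452 of all genes passed, and DESeq2 also called 0 members. *Dct* was at 0.19 (SE 0.57), *Pmel* at -0.01 (SE 0.39) and *Slc24a5* at -0.16 (SE 0.47), and each of these 3 changed sign when 1 library was left out. No change was thus detected for these 3 pigment genes in the small intestine, and with 2 IMQ libraries and such low counts a small one could not be seen. *Pmel*, with 39 to 70 reads per library, had the smallest standard error of the 3. Among the 42 other genes, 36 were tested in this tissue and 1 was called, *Rab32*, which was higher as were 2.77% of all genes. It encodes a small GTPase that takes part in transport to melanosomes and is also found in macrophages. Its normalized count was 499, 496 and 458 with vehicle and 1110 and 1083 with IMQ, a log2 fold change of 1.18 (SE 0.14, adjusted p = 0.00521 by edgeR). The summed FPKM of 5 macrophage genes was 74.9 to 110 with vehicle and 279 to 315 with IMQ. Of the 5, 3 were called higher by edgeR, against 2.77% of all genes. They were *Adgre1*, *Cd68* and *C1qa* (adjusted p = 0.00231, 0.000794 and 0.00223 by edgeR). The groups overlapped for *Mrc1* (log2 fold change 0.05, SE 0.21) and *Csf1r* (0.38, SE 0.23). The part of macrophages in the level of *Rab32* was not tested.

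**Figure D4:**
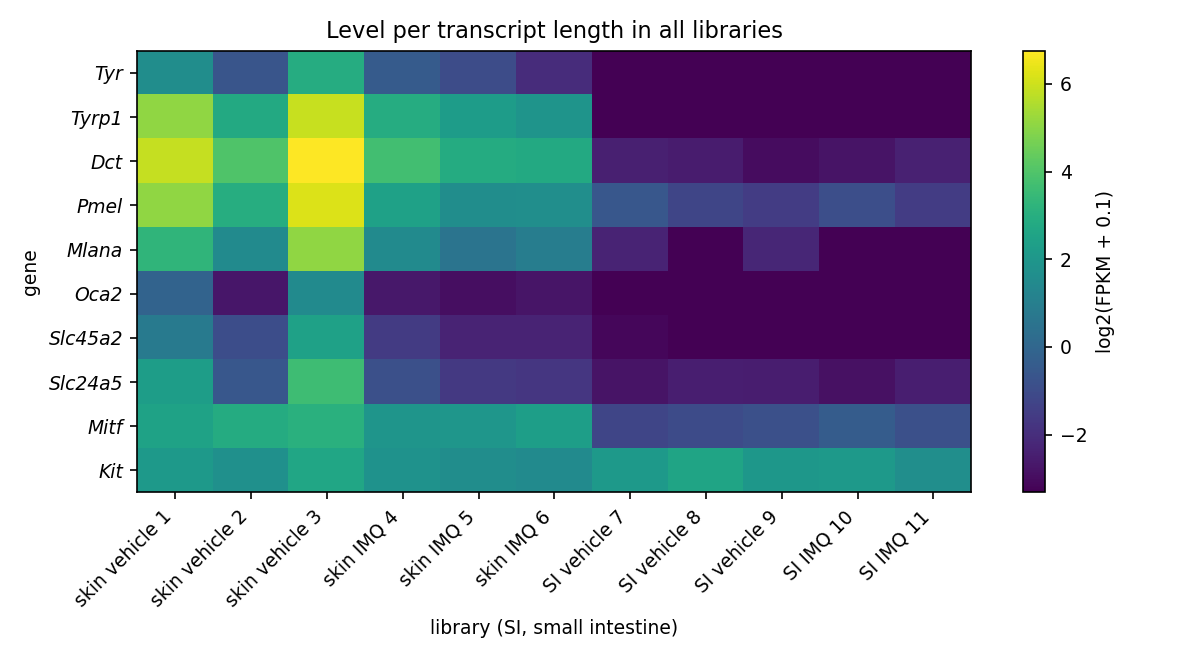
Color scale of log2(FPKM + 0.1) for each of the 10 genes in the 6 skin and 5 small intestine (SI) libraries. The pigment genes are high in skin vehicle libraries 1 and 3, lower in the other skin libraries and near the floor of the scale in small intestine, and *Kit* has a similar level in all libraries.

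Between the tissues, vehicle skin was compared with vehicle small intestine. The vehicle skin values are those known when the members were chosen. The differences of the members between tissues, and their p-values, are therefore a description and no independent test. Genes were kept for this test by edgeR's filterByExpr, which genes with few reads in small intestine pass through their skin counts. *Tyr*, *Tyrp1*, *Mlana* and *Slc45a2* had 0 reads in at least 1 vehicle library of small intestine, so their tests are not given. Of all 19888 genes tested, 29.2% were higher in skin. For members without counts above 3 in any vehicle library of small intestine, only lower bounds are given, taken against 3 reads in each library. *Tyr* was at least 271-fold higher in skin by the mean of the vehicle libraries and at least 45.1-fold higher in the lowest of them, vehicle library 2. For *Tyrp1* these bounds were 1144-fold and 263-fold, for *Slc45a2* 91.9-fold and 17.6-fold, and for *Oca2*, which was not tested, 46.8-fold and 2.43-fold.

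The other differences between tissues, on normalized counts, were large as well. By edgeR, the log2 fold change of skin over small intestine was 9.35 for *Dct* (SE 0.91, adjusted p = 0.000213) and 5.97 for *Pmel* (SE 0.86, adjusted p = 0.00109). It was 5.82 for *Slc24a5* (SE 1.12, adjusted p = 0.00396) and 3.60 for *Mitf* (SE 0.23, adjusted p = 4.92e-05). These 4 genes had a read in every vehicle library of both tissues, and each was also called higher in skin when only genes with such reads were tested. *Mlana* had normalized counts of 279, 82.8 and 986 in vehicle skin and 5.11, 0 and 6.53 in vehicle small intestine. Even vehicle library 2 of the skin was above every vehicle library of the small intestine for each of these 5 genes, as all vehicle skin libraries were for 34.4% of genes.

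*Kit* was the exception to this pattern. Its normalized count, scaled over both tissues, was 1019, 892 and 1484 in vehicle skin and 1502, 1948 and 1436 in vehicle small intestine. The groups overlapped through vehicle library 3 of the skin. The log2 fold change of skin over small intestine was -0.52 (SE 0.23, adjusted p = 0.0888 by edgeR), and without that library it was -0.76 (adjusted p = 0.0167 by edgeR).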

How the data were processed

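RNA from skin and small intestine was sequenced as 100-bp paired-end reads (TruSeq Stranded mRNA). The authors aligned reads to mm10 with HISAT2 2.1.0 and quantified genes with StringTie 2.1.3b, and deposited whole-number read counts. The deposited FPKM, scaled by the authors for transcript length and library size, were used for levels between genes. The deposited TPM were not used. The counting tool and strand setting are not given in the sources used here.

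Normalized counts are counts divided by effective library size and multiplied by its mean over the libraries compared. Genes with at least 1 read in every library of the tissue (between the tissues, genes kept by filterByExpr) were tested with edgeR 4.0.16 in R 4.3.3 (quasi-likelihood test, relative log expression, Benjamini-Hochberg adjustment over all genes, threshold 0.05). The libraries had 44995414 to 58526384 counts, and their number, not depth, limits precision for genes with many reads. Alternatives were TMM normalization, DESeq2 1.42.0, other filters, 1 fit of all 11 libraries, limma 3.58.1 on log2(FPKM + 0.1) and log2(FPKM + 1), and each library left out. Named genes are the 10 members, called genes of the melanocyte, signal and melanosome lists, and the 10 genes most like the pigment genes. Markers and other genes were named after their values were seen. Members and lists were chosen with earlier results of these data known. *Krt85* was not analysed here.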

Additional observations from a re-analysis of the deposited data

Results flagged for a closer look

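*Mitf* separated the groups in opposite directions in the 2 tissues. In skin all 3 IMQ libraries were below all 3 vehicle libraries, as for 13.3% of all genes tested there. The log2 fold change was -0.69 (adjusted p = 0.0762 by edgeR). In small intestine both IMQ libraries were above all 3 vehicle libraries, as for 15.1% of all genes tested there. The log2 fold change was 0.51 (adjusted p = 0.557 by edgeR), so *Mitf* was called in neither tissue. The difference between the tissues was not tested, and the skin value helped to choose the gene.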

How the results depend on the processing

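No paired analysis was possible because the labels do not say which skin and small intestine libraries came from the same mouse. The comparison between tissues treated the libraries as independent. In skin, the 0 members called by edgeR became 9 with DESeq2, 5 with 1 fit of all 11 libraries, and 0 to 8 when a library was left out, with the 8 reached without vehicle library 2. The 1382 genes called in skin became 3030 with DESeq2 and 894 with limma on log2(FPKM + 1), and ranged from 258 to 2521 when a library was left out. The 4 other melanocyte and melanosome genes called became 9 with DESeq2 and 1 with limma on log2(FPKM + 0.1) or log2(FPKM + 1), and ranged from 1 to 9 when a library was left out. In small intestine, the 588 genes called became 1206 with DESeq2 and ranged from 294 to 801 when a library was left out. There, leaving out a library moved the log2 fold change of *Dct* to between -0.41 and 0.65 (-0.19 without vehicle library 9, -0.41 without IMQ library 11), that of *Pmel* to between -0.29 and 0.33 (0.33 without vehicle library 7, 0.21 without IMQ library 11) and that of *Slc24a5* to between -0.80 and 0.33 (0.33 without IMQ library 10). The cause was not tested. Between the tissues, 11550 genes were called, and 9798 to 12980 under all alternatives run. All skin estimates of the members stayed negative under every alternative run. Few reads limit *Oca2* in skin and the pigment genes in small intestine.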
